A study of Mus musculus with 24 samples.

Results

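The genes described here encode the proteins of the cytosolic ribosome. Their mRNAs were read in C2C12, a mouse myoblast line, and in NSC34, a mouse line with features of motor neurons. The genes were taken by name: every protein-coding gene whose symbol follows the pattern for a large-subunit (Rpl), stalk (Rplp) or small-subunit (Rps) protein in the GENCODE M21 annotation of GRCm38, which gave 83 genes on 19 chromosomes. Of these, 31 encode proteins of the small (40S) subunit, 43 of the large (60S) subunit and 3 of the acidic stalk, and 6 are paralogs named after a core gene (Rpl3l, Rpl7l1, Rpl10l, Rpl22l1, Rpl39l and Rps27l). In each line 81 of the 83 had reads, and reads were found on 15439 genes overall in C2C12 and on 7557 in NSC34. The genes took 625729 of 3309635 C2C12 reads (18.9%) and 13052 of 70865 NSC34 reads (18.4%).

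A ribosome holds 1 copy of nearly every ribosomal protein, so the mRNAs are made in broadly matched amounts and are translated together: most begin with a pyrimidine tract at the 5′ end, the terminal oligopyrimidine (TOP) tract, through which growth signals set their translation. The stalk proteins Rplp1 and Rplp2 are the exception, present in several copies on Rplp0, where they recruit elongation factors. A few genes have paralogs that can stand in for the core protein, some of them restricted to tissues such as muscle (Rpl3l) or testis (Rpl10l, Rpl39l). Mammalian genomes also carry many processed copies of ribosomal protein mRNAs, and reads can be hard to assign between a gene and such a copy.

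Each line was sampled as a control without co-culture (n = 6 libraries) and after 3 days of co-culture of C2C12 with NSC34 (n = 6). Both lines were labelled wild type, and total RNA taken in Trizol was read on an Oxford Nanopore MinION. How cells of one line were separated from the other is not described in the labels, nor whether replicates were separate cultures, so p-values measure the spread between these libraries, which may be technical. As C2C12 and NSC34 are each 1 established line, a difference between them is a difference between these lines and not between muscle and nerve.

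C2C12 libraries held 121154 to 658075 reads, NSC34 controls 88 to 4624 and NSC34 co-cultures 2807 to 30314, and NSC34 control libraries 1 and 6 held under 1000. All 13 muscle markers had reads in the C2C12 libraries, at 20203 to 24777 CPM (counts scaled to library size) in sum in controls and 23971 to 25965 in co-culture. In NSC34 the same list summed to 0 to 491 CPM in controls and 200 to 928 in co-culture, with Myod1, Myog, Des and Actc1 among the markers at 0. Of the 14 neuronal markers, 6 had reads in NSC34 controls and 8 in co-cultures, against 7 and 8 in C2C12. In NSC34 they summed to 0 to 1730 CPM in controls (17 reads) and 523 to 1657 in co-cultures (56 reads). Nefm and Stmn2 had reads in C2C12 and were at 0 in NSC34. The motor neuron genes Mnx1, Lhx3, Slc18a3 and Slc5a7 were at 0 in both lines and were thus not detected at this depth in NSC34. In C2C12 the neuronal list was at 178 to 239 CPM in controls and 175 to 214 in co-culture, with Chat and Isl1 at 0.

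Transcript sequences that recur in the results are shown first, all from GENCODE M21 (GRCm38). Rps24, at chr14:24487125-24496959 on the plus strand, has 2 main transcripts that differ by an 18-base exon at chr14:24494052-24494069. The exon, in capitals, sits at the end of the coding sequence and adds 1 codon before a stop that lies inside it, and without it the next exon supplies the stop.

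Rps24-202: ggcaaaaagtga
Rps24-205: ggcaaaaagAAATGAAATACCTAGCAGtga

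Rps26 lies at chr10:128624534-128626747 and its transcribed processed pseudogene Rps26-ps1 at chr8:107439131-107439579, both on the minus strand. Their 348 coding bases differ at 2 positions, counted from the A of the Rps26 start codon and written with the Rps26 base first, C30T and G270A, and 0 codons encode another amino acid. Each line below is a stretch of 30 coding bases with the differing base in capitals.

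Rps26 around position 30: agaaacaacggtcgCgccaaaaagggccgc
Rps26-ps1 around position 30: agaaacaacggtcgTgccaaaaagggccgc
Rps26 around position 270: aatcgatcccgcgaGgcccggaaggaccga
Rps26-ps1 around position 270: aatcgatcccgcgaAgcccggaaggaccga

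The TOP tract, a feature that the choice by name did not use, was looked for in the promoter windows of RefSeq (GRCm38.p6), which hold 63 of the 83 genes. On the transcribed strand, 13 of the 63 (20.6%) had a C at the annotated start followed by at least 4 pyrimidines, against 813 of 27025 genes in the table (3.01%). With the C allowed up to 5 bases to either side of the start, these were 29 (46.0%) and 5718 (21.2%). Examples are 2 genes higher in NSC34 and 1 lower, described below, with the start at base 11 of each window and the pyrimidine run in capitals. Of these, Rplp2 met the first rule. Rpl27a and Rpl39 met only the wider one, as their start base is T, and in Rpl39 the run ends at the start base. The windows of Rps28 and Rpl37a, also lower in NSC34, held no such run. These examples do not stand for their direction. Among 8 genes higher and 8 lower in NSC34 that had a window, 4 of each met the wider rule. The first rule was met by 1 of the higher and 2 of the lower genes.

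Rplp2, chr7:141447641-141447670, plus strand: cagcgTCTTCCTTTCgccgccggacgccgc
Rpl27a, chr7:109519185-109519214, plus strand: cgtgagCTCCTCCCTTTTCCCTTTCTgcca
Rpl39, chrX:37085203-37085232, minus strand: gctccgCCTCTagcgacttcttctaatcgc

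The first question was how much of each library the ribosomal protein mRNAs took. In C2C12 controls they took 17.3, 19.1 and 19.6% of reads (lowest, median and highest library), and in co-culture 18.8, 19.4 and 19.9%, so the groups overlapped and the means differed by 0.644 percentage points. Control libraries 2 and 3 were the lowest, at 17.4 and 17.3%, and were also lowest in the short mRNAs Rps28 and Rps29. In NSC34 controls the share was 15.8, 17.2 and 26.1%, where the 2 highest values came from the libraries under 1000 reads, and without these 2 it was 16.6 ± 0.708% (SD, n = 4). NSC34 co-cultures stood at 17.4, 18.5 and 19.9%. In bulk RNA, fewer cells of a kind and less RNA per cell cannot be told apart.

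**Figure D1:**
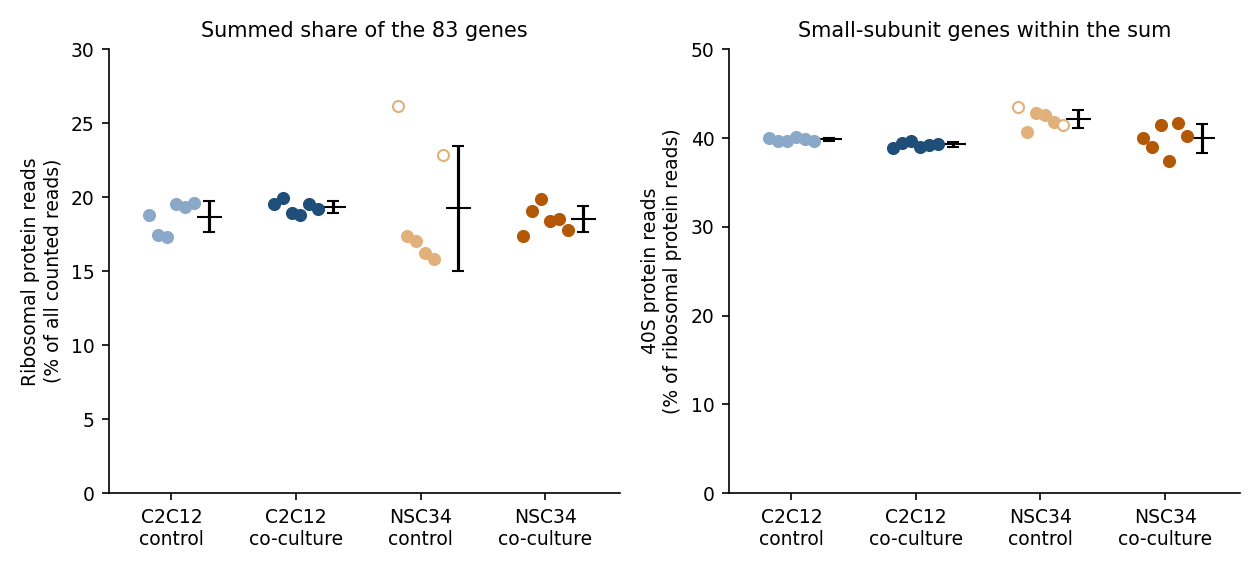
Left, share of all counted reads that fell on the 83 genes (%), and right, share of those reads on 40S genes (%), per library in the 4 groups. Points are libraries, open points hold under 1000 reads, and bars give the mean ± SD (n = 6). C2C12 libraries lie between 17.3 and 19.9% on the left and the groups lie between 37.4 and 43.5% on the right.

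Within the sum, the 40S genes took 39.6 to 40.1% of ribosomal protein reads in C2C12 controls and 38.9 to 39.7% in co-cultures, with a small overlap. In NSC34 they took 40.7 to 43.5% in controls and 37.4 to 41.7% in co-cultures. The 3 stalk genes took 4.32 to 4.58% and 4.29 to 4.57% in C2C12 controls and co-cultures. In NSC34 they took more, 5.22 to 9.03% in controls and 5.20 to 7.40% in co-cultures. The control library of 88 reads, with 23 ribosomal protein reads, stood at 8.70%. No NSC34 library overlapped a C2C12 library. This was a description of a sum, without a test.

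Levels of single genes spanned a wide range although the proteins are needed in near-equal numbers. Levels between genes are compared as CPM per kilobase of transcript (read-weighted annotated length), as means over the 12 C2C12 libraries among the 79 genes tested there. Rpl41, which encodes the shortest ribosomal protein, was highest at 19439, followed by Rps29 at 13824, Rps28 at 12026, Rplp1 at 8660 and Rps23 at 8627. Libraries of Rpl41 ranged from 16559 to 21657 in controls and from 18732 to 21017 in co-cultures and stood above every library of Rps29 (10172 to 15555), whereas Rps29 and Rps28 (8670 to 14171) overlapped, as did Rplp1 (7510 to 9287) and Rps23 (7643 to 9529). Lowest were Rpl7l1 at 23.1, Rps27 at 114, Rpl5 at 145, Rpl12 at 500 and Rps20 at 554. For Rps27, Rpl5 and Rpl12, most reads lay on near-identical copies (below), and Rps20 reads were given to a long annotated transcript (3697 bases), which lowers its value per kilobase. The order depends on the division by length. By CPM alone Rpl41 was still highest at 11006, Rps23 ranked 2 and Rps20 ranked 46 of 79. Whether reads per molecule grew with transcript length was not tested.

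The paralogs ranged from undetected to, per kilobase, the middle of the range. Rpl10l and Rpl39l had 0 reads in both lines, which allows up to 3 reads of each line's total (intervals and limits cover counting error only). Rpl3l, the striated muscle paralog of Rpl3, had 4 reads in C2C12 and 1 in NSC34, against 3677 and 138 for Rpl3. The paralogs with the most reads in C2C12 were Rps27l with 3061 and Rpl22l1 with 2149, while Rpl7l1 had 197. Per kilobase Rps27l ranked 51 of 79 at 1876 and Rpl22l1 ranked 65 at 1233. By CPM alone they ranked lower, at 69 and 75.

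At the median, the relative amounts were held closely between libraries. Across the 79 tested genes the coefficient of variation of a gene's share of ribosomal protein reads had a median of 7.88% among C2C12 controls and 5.84% among co-cultures, and the SD was 1.59 and 1.29 times the counting SD at the median. Largest against counting error were Rps29 (4.03 times) and Rps28 (3.88 times) in controls. The SD was over 2 times the counting SD for 27 of the 79 genes in controls and 10 in co-cultures. The largest coefficients of variation were 52.4 and 40.1%. The order of the genes hardly changed with co-culture in C2C12 (Spearman rho 0.99 over 81 genes with pooled reads), was less alike in the thinly read NSC34 groups (0.92), and least alike between lines (0.66 in controls and 0.64 in co-cultures). These correlations are over genes of the same pools and carry no test.

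The next comparison asked whether co-culture with motor-neuron-like cells changed ribosomal protein mRNAs in the myoblasts. None of the 79 genes tested passed an adjusted p of 0.05 in either direction (edgeR quasi-likelihood test, Benjamini-Hochberg adjustment over 2570 genes), where 1.44% of all genes tested passed (37 genes). Their log2 differences, co-culture minus control, ran from -0.24 to 0.26, and 77 of 79 lay within 0.2 of 0. The median was 0.05, against 0.00 over all genes tested: 0.03 for the 30 genes of the 40S, 0.06 for the 43 of the 60S and 0.01 for the 3 stalk genes. Of the 79, 5 had an unadjusted p under 0.05 by edgeR, and 5 by DESeq2, which also called 0.

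**Figure D2:**
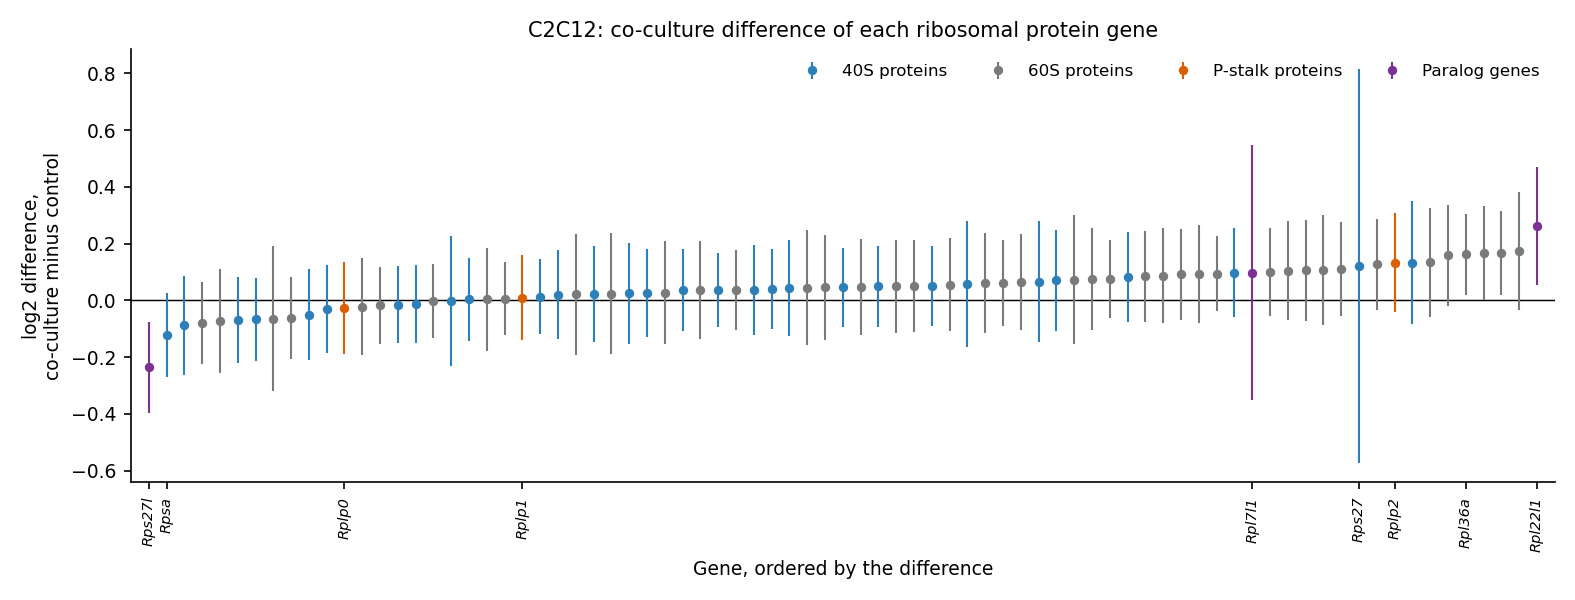
log2 difference (co-culture minus control, TMM scaling) of each of the 79 tested genes in C2C12 with its 95% confidence interval, ordered by size and coloured by subunit, with the paralogs, the stalk genes and a few others named. Nearly all points lie within 0.2 of 0. The paralogs Rps27l at -0.24 and Rpl22l1 at 0.26 are the extremes.

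The 2 extremes were both paralogs. Rps27l, a paralog of Rps27 that is known as a target of p53, stood at 951, 1028 and 1114 CPM of all reads in controls (lowest, median, highest) and at 799, 866 and 914 in co-cultures, and the groups did not overlap. Its log2 difference was -0.24 (SE 0.08, adjusted p = 0.123), and with a length trend removed it passed the test (-0.28, adjusted p = 0.0405 by edgeR). Among the 79 genes only Rps27l (below) and Rpl36a (above) had fully separate groups, and 1.71% of all genes tested did.

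Rpl22l1, the paralog of the 60S protein gene Rpl22, stood at 526, 577 and 755 CPM in controls and 678, 694 and 836 in co-cultures. The ranges overlapped, and the log2 difference was 0.26 (SE 0.10, adjusted p = 0.207). Rpl36a, a 60S protein gene, went from 1799, 1971 and 2076 to 2093, 2167 and 2265 CPM, a log2 difference of 0.16 (SE 0.07, adjusted p = 0.256). The third paralog tested, Rpl7l1, had medians of 51.2 and 56.4 CPM in controls and co-cultures.

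Scaled to ribosomal protein reads, so that a gene was compared with the rest of the ribosome, 1 gene fell in co-culture, Rps27l, and 0 rose, where 2.06% of all 2570 genes tested passed (1.52% lower, 0.545% higher). Only 3 of the 79 genes had fully separate groups on this scale, Rpl36a above and Rps27l and Rpl23a below, as did 1.4% of all genes tested. Rps27l took 0.521, 0.552 and 0.570% of ribosomal protein reads in controls and 0.424, 0.443 and 0.469% in co-cultures, without overlap. The log2 difference was -0.30 (SE 0.07, 95% confidence interval -0.44 to -0.15, adjusted p = 0.0455 by edgeR). The call was near the threshold: with 1 library left out, the adjusted p ran from 0.0364 to 0.114 and passed in 2 of 12 cases, those without control 5 or control 6, and the log2 difference from -0.31 to -0.28.

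Some markers of muscle differentiation rose in the same comparison. Of 12 muscle markers tested, 8 had a log2 difference above 0 and 4 below, and 3 rose in co-culture by TMM scaling: Ckm, muscle creatine kinase (log2 0.64, SE 0.10, adjusted p = 0.00268), Tnnt1, slow troponin T (0.45, SE 0.09, adjusted p = 0.0139) and Myog, the myogenic factor (0.43, SE 0.11, adjusted p = 0.0457). Relative to ribosomal protein reads 2 of the 12 were called higher. Their part in the Rps27l difference was not tested.

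Other genes of the translation machinery did not pass the test in C2C12 co-culture either. None of the 4 ribosome parts outside the naming pattern (median log2 0.07), of 14 other TOP mRNAs (0.00), of 9 ribosome biogenesis factors tested of 26 (-0.11) or of 57 mitochondrial ribosomal protein genes tested of 78 (0.04) was called. Smallest in p were Pabpc1, the poly(A)-binding protein (log2 -0.72, SE 0.19, adjusted p = 0.0524), Ncl, nucleolin (-0.39, SE 0.11, adjusted p = 0.0747), and Tpt1, a growth-regulated TOP mRNA (0.18, SE 0.05, adjusted p = 0.0866). Among mitochondrial genes the smallest p was that of Mrpl57 (0.49, SE 0.21, adjusted p = 0.262), and among the other ribosome parts Rpl36al stood at 0.10 (SE 0.08, adjusted p = 0.629).

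In NSC34 only 49 genes had enough reads for a test, 24 of them ribosomal protein genes. None was called, as for all 49 (0.0%), 0 of the 24 had an unadjusted p under 0.05, and DESeq2 gave the same counts of 0. Of all 49 genes, 1 had an unadjusted p under 0.05. The median log2 difference was 0.07, against 0.01 for all 49. Smallest in p were Rps23 at -0.57 (95% confidence interval -1.18 to 0.04, adjusted p = 0.842), Rps26 at 0.51 (-0.13 to 1.15, adjusted p = 0.925) and Rpl31 at 0.47 (-0.15 to 1.09, adjusted p = 0.925). The intervals hold both 0 and changes larger than any seen in C2C12, so at this depth such changes were not detectable.

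Whether the co-culture effect differed between the lines was tested with an interaction term on 78 genes. None of them, and none of 1328 genes in all (0.0%), passed by edgeR, with 18 of the 78 and 160 of the 1328 under an unadjusted p of 0.05 (DESeq2: 0 of the 78 called, 6 under 0.05). The median was 0.52 over the 78 and 0.46 over all. The smallest adjusted p, 0.0865, belonged to Rps27l (NSC34 effect minus C2C12 effect, log2 2.01, SE 0.49), Rpl36 (2.27, SE 0.56) and Rpl17 (2.11, SE 0.53). In NSC34 controls these rested on 0 to 2 reads per library. Leaving out NSC34 co-culture library 6 gave 4 called genes and leaving out library 1 gave 1.

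The lines differed in the make-up of the ribosomal protein mRNA pool. Relative to ribosomal protein reads, 10 of 78 genes were higher and 14 lower in NSC34 controls than in C2C12 controls (edgeR, adjusted p under 0.05), where 22.5% of all 1328 genes tested passed (11.1% higher, 11.4% lower). In co-cultures, which share no library with the controls, 21 were higher and 20 lower, where 51.2% of all genes passed (25.6% in each direction). Both comparisons come from the same fit of all 24 libraries and share its estimate of the spread, so their p-values are not independent. The comparison in co-cultures was added after the control values had been seen. The count in co-cultures, 41 of 78, was near the share of all genes called, and the median log2 difference was -0.02 in controls (all genes -0.04) and -0.04 in co-cultures (all genes 0.03). The 10 and 21 higher genes include Rps2, the 1 gene of the 78 that passed the filter through NSC34 libraries only, and the other 77 passed it through C2C12 libraries alone as well as through NSC34 libraries alone. Line, sequencing depth and deposited table are the same split of the libraries here and cannot be told apart. Both comparisons called 18 of the same genes, 75.0% of the control calls and 43.9% of the co-culture calls, 9 higher and 9 lower, with 0 in opposite directions. The 18 and the 9 higher genes include Rps2, for which the filter decided the outcome. Of all 1328 genes, 265 (20%) were called in both (9.56% higher in both, 10.4% lower in both), so 18 of 78 lay near the background.

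**Figure D3:**
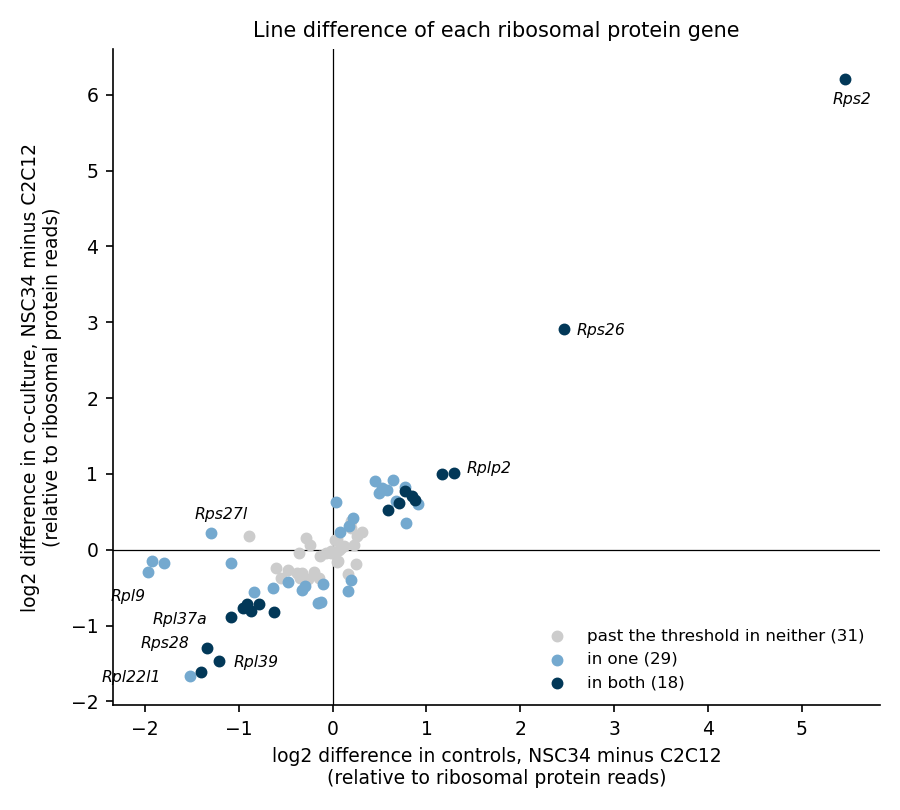
log2 difference of NSC34 minus C2C12 relative to ribosomal protein reads, in controls (x axis) and in co-cultures (y axis), for 78 genes. Colours mark how many of the 2 comparisons passed an adjusted p of 0.05. Rps2 and Rps26 stand far to the upper right, and Rpl39, Rps28 and Rpl37a lie at the lower left among the genes called in both. Rps2 passed the filter through NSC34 libraries only, so it had to differ.

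Among 40S genes, 6 were higher in NSC34 controls, among them Rps26, Rpsa, Rps3 and Rps27a and, decided by the filter, Rps2, and 5 were lower, among them Rps28, Rps20, Rps18 and Rps14. With copies added (below), Rps18 went from -0.91 (adjusted p = 0.0364) to -0.70 (adjusted p = 0.0501 by edgeR) in controls and kept its call in co-cultures. Rps26, which lines the mRNA exit channel, took 0.380, 0.474 and 0.545% of ribosomal protein reads in C2C12 controls and 0, 2.12 and 3.95% in NSC34 controls, the 0 in the library of 88 reads. In co-cultures it took 0.428, 0.444 and 0.498% in C2C12 and 1.62, 3.14 and 5.47% in NSC34, without overlap. On this scale 27 of 78 genes had fully separate groups in co-cultures, 12 above (Rps2 among them) and 15 below, against 27.3% of all genes tested. The log2 differences of Rps26 were 2.47 (SE 0.26, adjusted p = 1.69e-09) and 2.92 (SE 0.17, adjusted p = 4.47e-17).

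Rps2, a protein of the mRNA entry side, had 56 reads in C2C12 and 74 in NSC34, where Rps26 had 2882 and 416. It took 0 to 0.0133% of ribosomal protein reads in C2C12 controls and 0 to 1.10% in NSC34 controls, and 0.00437 to 0.00972% against 0.267 to 0.903% in co-cultures. As it passed the filter on low counts only through NSC34 libraries (10 of 12, and 0 of 12 in C2C12), it had to differ, and these values are a description without a test. Both genes are taken up again with their copies below.

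Rps28, a small 40S protein, was lower in NSC34. It took 1.93, 2.47 and 2.73% of ribosomal protein reads in C2C12 controls and 0.532, 0.832 and 4.35% in NSC34 controls, where the highest value is that of the library of 88 reads. The log2 differences were -1.34 (SE 0.27, adjusted p = 0.000195) in controls and -1.30 (SE 0.17, adjusted p = 1.26e-07) in co-cultures, with groups apart in co-cultures only.

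Among 60S genes, 3 were higher in NSC34 controls (Rpl27a, Rpl11 and Rpl4) and 8 lower (Rpl39, Rpl37a, Rpl36, Rpl9, Rpl17, Rpl23a, Rpl28 and Rpl23). Rpl39, a very small protein of the exit tunnel wall, took 2.25, 2.51 and 2.75% of ribosomal protein reads in C2C12 controls and 0, 0.839 and 2.66% in NSC34 controls, and 2.37, 2.48 and 2.87% against 0.703, 0.890 and 1.20% in co-cultures. The co-culture ranges were apart, and the log2 differences were -1.21 (SE 0.23, adjusted p = 0.00015) and -1.46 (SE 0.17, adjusted p = 3.22e-09). Rpl27a, a 60S protein, was higher by 0.85 (SE 0.19, adjusted p = 0.000737) and 0.71 (SE 0.13, adjusted p = 2.83e-05).

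Rpl36, Rpl9 and Rpl17 were called lower in NSC34 controls only, at -1.93, -1.97 and -1.80, from 5, 4 and 5 reads in all over the NSC34 controls. In co-cultures they stood at -0.14, -0.29 and -0.17 and missed the threshold (adjusted p = 0.575, 0.245 and 0.497 by edgeR). With reads of near-identical copies added (below), none of the 3 passed in controls (adjusted p = 0.0635, 0.142 and 0.226).

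Rpl28 and Rpl11 were also called in controls and not in co-cultures: Rpl28 stood at -1.08 and -0.17 (adjusted p = 0.0253 and 0.435) and Rpl11 at 0.78 and 0.35 (adjusted p = 0.00481 and 0.0637 by edgeR). Some calls in controls rested on 1 library. Rpl11 missed the threshold without NSC34 control 2 (adjusted p = 0.153), Rpl4 without control 2 (0.134) or 5 (0.0688), Rpsa without control 4 (0.0779) or 5 (0.106), and Rpl23a without control 2 (0.060) or 5 (0.101), all by edgeR and all in the same direction as with all libraries.

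In the stalk, Rplp2 was higher in NSC34: 1.19, 1.30 and 1.37% in C2C12 controls against 2.12, 3.14 and 4.35% in NSC34 controls, and 1.26, 1.39 and 1.42% against 1.87, 2.62 and 3.41% in co-cultures. Every NSC34 library stood above every C2C12 library of the same condition. The 4.35% is that of the library of 88 reads, where 1 of 23 ribosomal protein reads gives this value. The log2 differences were 1.29 (SE 0.17, adjusted p = 1.93e-07) and 1.01 (SE 0.12, adjusted p = 1.77e-08). Its partner Rplp1 did not pass in controls (0.06, SE 0.17, adjusted p = 0.851), and Rplp0, the base of the stalk, was at 0.64 (SE 0.26, adjusted p = 0.0938) in controls and higher in co-cultures at 0.92 (SE 0.16, adjusted p = 1.84e-05). Whether the 3 stalk genes differed from each other in their line difference was not tested.

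Of the paralogs, Rpl22l1 was lower in NSC34 co-cultures (log2 -1.66, SE 0.33, adjusted p = 7.71e-05; 15 reads in NSC34) and at -1.53 in controls (SE 0.62, adjusted p = 0.0968). Rps27l was lower in NSC34 controls (-1.30, SE 0.43, adjusted p = 0.0464 by edgeR), from 6 reads. Rps27l has 0 annotated copies itself. Its call was lost when copies were added to other genes, which changed the total used for scaling (-1.26, adjusted p = 0.0542 by edgeR). In co-cultures Rps27l stood at 0.22 (SE 0.20, adjusted p = 0.384). Both line differences ran with transcript length to some degree: over 78 genes the Spearman rho of log2 difference and length was 0.30 in controls and 0.29 in co-cultures, against 0.07 and 0.07 over 1322 genes. Its part in these results was not tested.

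With TMM scaling over all genes the same contrast read differently. In controls 2 of 78 genes were higher and 57 lower in NSC34, where 40.4% of all genes passed (5.8% higher, 34.6% lower), and in co-cultures 6 higher and 44 lower, where 52.3% passed (16.9% higher, 35.3% lower). The 2 and the 6 higher genes include Rps2, decided by the filter. The median of all 1328 genes was -0.94 in controls and -0.38 in co-cultures, and that of the ribosomal protein genes -0.95 and -0.51, close to that shift. Other scalings gave 17 to 24 lower genes in controls.

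Reads were shared between many of these genes and near-identical copies. Of the 83 genes, 74 have at least 1 annotated copy elsewhere (95% or more identical over at least 200 bases and 80% of the shorter transcript), and copies of 47 had reads. Copies took 8.43% of the reads on genes and copies in C2C12 and 6.23% in NSC34. Rps27rt took 98.4% of its pair with Rps27 in C2C12 controls and 93.1% in NSC34 controls (95% exact binomial interval 77.2 to 99.2), and Rpl10-ps3, identical to Rpl10 over 740 bases, took 54.6% and 50.7% (38.4 to 63.0). Rpl17-ps8, a copy of Rpl17, held 0 reads in C2C12 and 21 in NSC34, against 4012 and 62 on Rpl17.

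For Rps26 and Rps2 most reads lay on the copy in C2C12 and on the gene in NSC34. Rps26-ps1 took 80.9% of the pair's reads in C2C12 controls (95% exact binomial interval 79.9 to 81.9) and 81.1% in co-cultures (80.3 to 82.0), and every C2C12 library lay between 77.9 and 84.1%. In NSC34 it took 26.0% in controls (17.6 to 36.0, 25 reads against 71 on Rps26) and 20.7% in co-cultures (17 to 24.8, 90 against 345), and no NSC34 library exceeded 50%.

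Rps2-ps10 took 98.6% in C2C12 controls (98.0 to 99.1) and 98.9% in co-cultures, and 7.14% (0.181 to 33.9, 1 read against 13 on Rps2) and 4.69% (0.977 to 13.1, 3 against 61) in NSC34. The 1 read in controls was the only read of the pair in control library 6, and the 3 in co-cultures came from library 2. Rps2-ps10 is a transcribed processed pseudogene that is 99.4% identical to Rps2 over 934 bases. Whether reads come from the copies or were assigned to them was not tested.

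**Figure D4:**
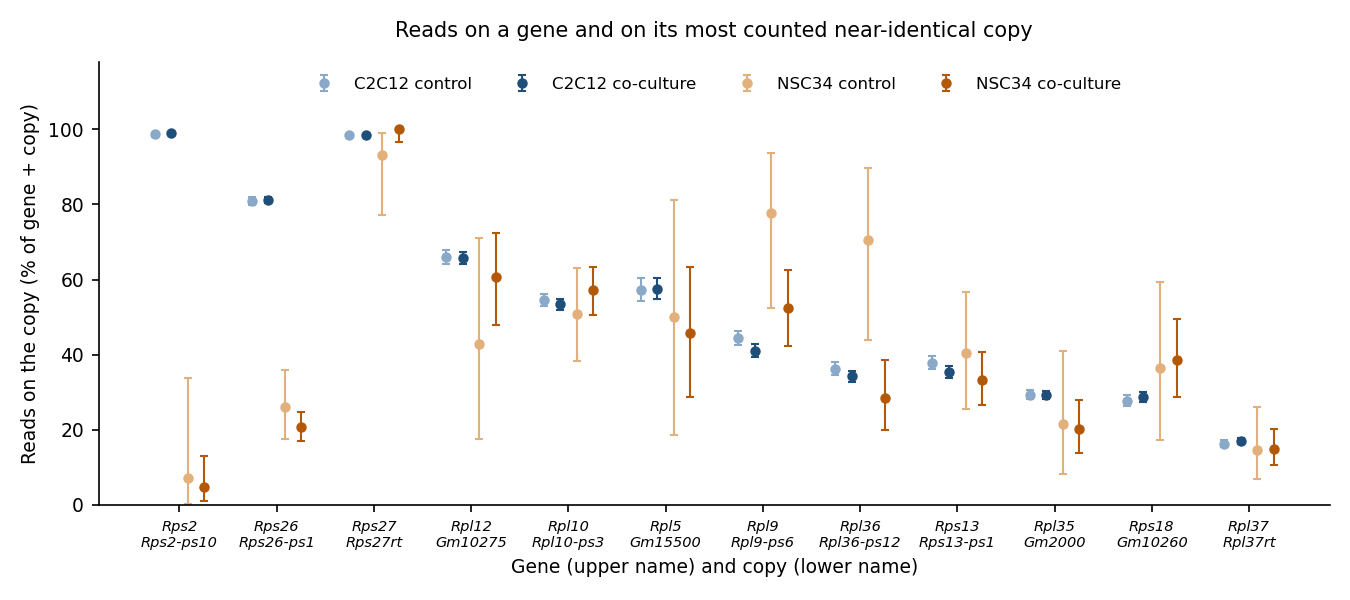
Share of reads on the most counted near-identical copy, as % of reads on the gene and that copy, for 12 gene and copy pairs in the 4 groups (reads pooled over 6 libraries). Bars are 95% exact binomial intervals and cover counting error only. Rps2 and Rps26 are split differently in the 2 lines, at 98.6 and 80.9% in C2C12 controls against 7.14 and 26.0% in NSC34 controls.

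Adding the copies' reads to their genes, a step chosen after seeing the data, left no called line difference for Rps2 and a smaller one for Rps26. Rps2 then stood at a log2 difference of -0.44 in controls (SE 0.36, adjusted p = 0.405) and -0.16 in co-cultures (SE 0.21, adjusted p = 0.549), and Rps26 at 0.57 (SE 0.15, adjusted p = 0.00686) and 0.82 (SE 0.11, adjusted p = 2.35e-07). Calls were also gained in controls. By edgeR, Rpl10 (0.84, adjusted p = 0.00255) and Rps13 (0.70, adjusted p = 0.0243) were then higher in NSC34. Rpl35 (-0.98, adjusted p = 0.00526) and Rpl12 (-0.88, adjusted p = 0.0458) were then lower. Without copies the adjusted p of these genes was 0.0558, 0.327, 0.0607 and 0.872 by edgeR. For Rps27l in C2C12 co-culture, which has 0 copies of its own, the value relative to ribosomal protein reads was -0.30 (SE 0.07, adjusted p = 0.0449 by edgeR) with copies added to the other genes.

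The last comparison used the transcript level of the counts and asked whether co-culture changed which transcript of a gene was read in C2C12. For 38 genes the share of the most counted transcript was compared between the groups by an exact two-sided permutation test. None passed after adjustment over 498 genes, of which 0 passed (0.0%). The smallest p that 6 against 6 allows is 0.00216 before adjustment. A gene could thus pass only if many others were at that floor too, so the test could not decide on a single gene. An unadjusted p under 0.05 was found for 5 of the 38 genes and 33 of the 498 (exact permutation test). The smallest were Rps28-205, from 62.4 ± 1.94% to 66.3 ± 1.04% (SD, n = 6 each; exact permutation p = 0.00216, adjusted p = 0.216), Rps24-202, from 61.9 ± 1.54% to 57.6 ± 2.24% (exact p = 0.00649, adjusted p = 0.269), Rpl30-202, from 85.3 ± 2.24% to 87.8 ± 1.06% (exact p = 0.0108, adjusted p = 0.415), and Rpl14-201, from 81.0 ± 3.09% to 76.3 ± 3.05% (exact p = 0.0281, adjusted p = 0.622).

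For Rps24 the other side of the shift was the transcript with the 18-base exon. Rps24-205 took 24, 26.9 and 27.1% of Rps24 reads in C2C12 controls and 28.6, 32.5 and 33.2% in co-cultures, and the groups did not overlap. In a test of every transcript with 5 to 95% of its gene's reads, added after the values had been seen, its exact permutation p was 0.00216 and its adjusted p 0.297 over 1167 transcripts, so it did not pass. The third transcript, Rps24-210, took 7.28 to 10.3% in controls and 7.32 to 9.59% in co-cultures.

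**Figure D5:**
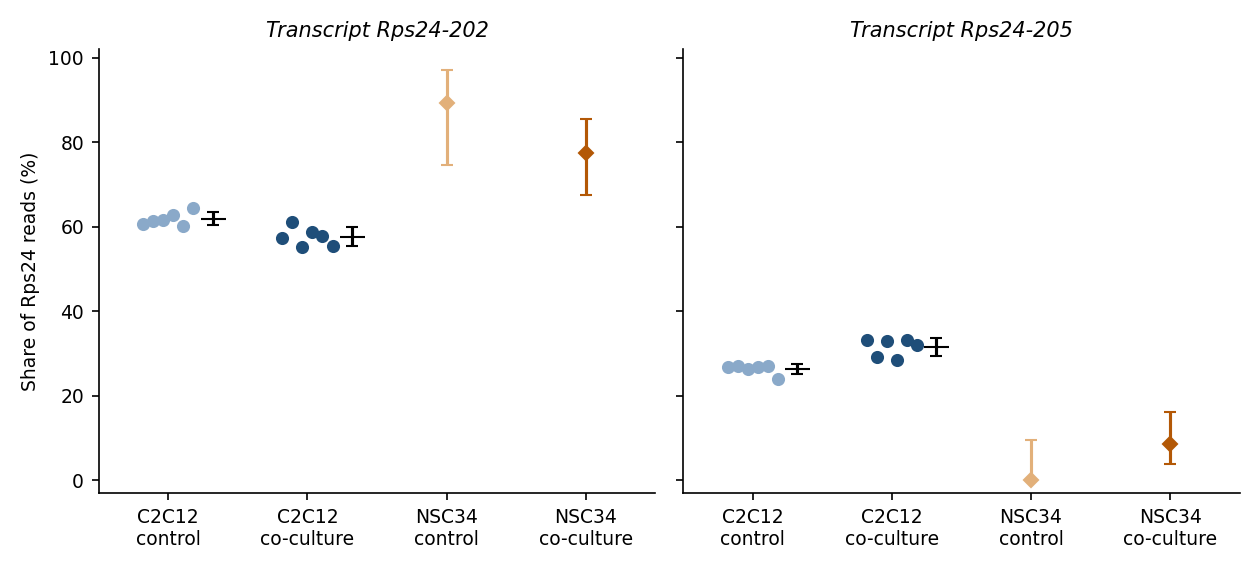
Share of Rps24 reads (%) on the transcript without the 18-base exon (left) and with it (right). C2C12 points are libraries with the mean ± SD (n = 6), and NSC34 diamonds are reads pooled over 6 libraries with 95% exact binomial intervals. Rps24-205 runs from 24 to 27.1% in C2C12 controls and from 28.6 to 33.2% in co-cultures. Its pooled share is at or below 8.60% in NSC34.

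The pooled share of the transcript with the exon was lower in NSC34. Rps24-205 held 2729 of 9330 Rps24 reads in C2C12 (29.2%, 95% exact binomial interval 28.3 to 30.2) and 8 of 130 in NSC34 (6.15%, 2.69 to 11.8), with 0 of 37 in NSC34 controls and 8 of 93 in co-cultures (8.60%, 3.79 to 16.2). Libraries were pooled for these shares, so the intervals leave out the spread between libraries and the line difference has no test. In NSC34 co-culture library 5 the share of Rps24-205 was 22.2%, from 4 of 18 reads. Other transcripts with unlike pooled shares, picked after their values were seen, were Rps23-203 (20.5% of Rps23 reads in C2C12 and 3.49%, 1.92 to 5.79, in NSC34), Rpl18-202 (42.9% and 17.3%, 8.23 to 30.3) and Rpl36a-205, annotated as subject to nonsense-mediated decay (11.4% and 1.80%, 0.219 to 6.36).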

How the data were processed

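Total RNA of 24 libraries was read by Nanopore MinION, per the labels. The values are raw counts deposited by the authors, whole numbers of reads per Ensembl transcript, 1 table per line; the build is GRCm38 per the submitters' processing notes, and which aligner and counter were used, and with what strand setting, is not given in the sources here. Version suffixes were stripped, transcripts were matched to GENCODE M21 (37415 of 37677 in C2C12, 10374 of 10427 in NSC34), and counts were summed per gene; 0 columns were left unused.

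Tests were edgeR 4.0.16 in R 4.3.3 (filterByExpr, TMM or, for stoichiometry, the library's total of ribosomal protein reads, quasi-likelihood F test, Benjamini-Hochberg adjustment over all genes tested, threshold 0.05). C2C12 and NSC34 were fitted alone for co-culture, and all 24 libraries together for line differences. TMM scaling set the median of all genes below 0 between the lines and the ribosomal protein total set it near 0, and line differences lead with the latter. Transcript shares were tested by exact two-sided permutation where every library had at least 10 reads of the gene. CPM is relative to all reads. A gene with 0 reads was given a limit of 3 reads. Copies were found with BLAST+ 2.17.0 in Python 3.11.15 (scipy 1.17.1). DESeq2 1.42.0, RLE factors, library totals, other filters, a length correction (loess, span 0.5), the replicate number as a block and each library left out were alternatives.

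The genes, lists and tests were chosen with earlier results of these data known. Named are genes past the threshold (up to 8 of smallest p per direction, or 3 of smallest p where none passed), the 5 highest and 5 lowest per kilobase, all paralogs, the 3 lowest p-values of each pathway list and up to 4 isoform shares; others are said to be picked after seeing values. Results for some of the genes are not reported here.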

Additional observations from a re-analysis of the deposited data

Results flagged for a closer look

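In 3 of the 46 groups of 6 libraries examined, 1 library stood apart from the others by Dixon's criterion (gap over range above 0.625), which chance alone does in about 1 group in 20. All 3 were C2C12 co-culture values of a share of ribosomal protein reads. Rpl22l1 was 0.435% in library 6, against 0.347 to 0.379% in the others. Rpl7l1 was 0.0438% in library 1, against 0.0258 to 0.0316%. Rps28 was 2.79% in library 5, against 2.38 to 2.49%.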

How the results depend on the processing

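The absence of called genes in C2C12 co-culture (0 higher, 0 lower by TMM) held with each library left out (0 to 0) and in all other alternatives except the removal of a length trend, which gave 1 lower gene. The 1 lower gene relative to ribosomal protein reads was lost with the replicate number as a block (0) and in 10 of 12 leave-one-out fits (0 to 1), and NSC34 co-culture gave 0 throughout. The interaction gave 0 to 4 higher genes with a library left out.

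Relative to ribosomal protein reads, leave-one-out fits gave 7 to 14 higher and 8 to 15 lower genes in controls and 16 to 22 and 17 to 22 in co-cultures, and the block 10, 13, 18 and 20. By TMM they gave 1 to 3 higher and 39 to 65 lower genes in controls and 2 to 12 and 36 to 57 in co-cultures. TMM counts moved with the scaling. In controls, higher and lower genes were 4 and 24 with RLE factors, 8 and 17 with library totals, and 5 and 20 with DESeq2, and higher genes were 1 with no filter, 1 with a mean count of at least 10 and 0 with copies added. In co-cultures, higher genes were 15 with RLE factors, 18 with library totals (22 lower), 17 with DESeq2, 2 with no filter (76 lower), 3 with the block and 2 without libraries under 1000 reads. The cause was not tested.

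Signs changed for genes near 0 in C2C12 co-culture. Without control libraries 2 and 3 (added after seeing the data) Rpl41 was -0.040, Rps29 -0.11, Rps28 -0.043, Rplp1 -0.083, Rps23 -0.055 and Rps20 -0.053, with the length trend removed Rplp1 was -0.022, Rps23 -0.013 and Rpl12 -0.0068, with copies added Rpl12 was -0.0033, and with no filter Rpl5 was 0.023, none called. With no filter Rps23 was 0.023 in NSC34. By TMM between lines with copies added, Rps2 was -1.42 and Rps26 -0.45 in controls and Rps2 -0.64 in co-cultures, where with no filter Rplp2 was -0.56, Rplp0 -0.65, Rpl4 -0.51 and Rpl31 -0.65. Relative to ribosomal protein reads with copies added, Rps2 was -0.44 and -0.16. Leaving out 1 library changed signs by TMM in C2C12 co-culture for Rps29 (-0.0094 to 0.11), Rplp1 (-0.045 to 0.038), Rps23 (-0.010 to 0.068), Rps20 (-0.018 to 0.066), Rpl12 (-0.0034 to 0.097), Rpl5 (-0.11 to 0.031), Rps27 (-0.11 to 0.24) and Rpl7l1 (-0.045 to 0.23), and between lines in co-culture for Rplp2 (-0.0062 to 0.72), Rpl4 (-0.14 to 0.74) and Rpl31 (-0.15 to 0.62).

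The labels do not say whether replicate numbers pair the libraries. Same-numbered C2C12 libraries had correlations of deviations from -0.10 to 0.14, and 1 of 6 controls correlated best with its own number. In NSC34 the correlations ran from -0.24 to 0.30, and again 1 of 6 did so. These values cannot decide whether the libraries were paired. In the block fits by TMM 0 genes passed in either co-culture contrast and in the interaction, and 2 and 54 in controls and 43 lower in co-cultures. Depth limits every NSC34 value.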
